A study of Mus musculus with 8 samples.

Results

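The genes described here are the nuclear receptors of the mouse other than the farnesoid X receptor genes and the Nr4a group, 38 genes chosen by name. Of the 38, 36 had a probe set annotated with that gene alone, each with 1 probe set, out of 19938 genes measured in all. The LXR-beta gene Nr1h2 and the photoreceptor gene Nr2e3 had no probe set annotated with that gene alone and are not analysed here. RNA of hepatic stellate cells, pericytes of the liver sinusoid that store retinoid as droplets of ester, was hybridised to Affymetrix mouse gene arrays, 1 array per sample. The knockout group held 4 arrays (numbers 5 to 8) from Mx1Cre+ mice whose Lhx2 alleles were floxed, and the control group held 4 arrays (numbers 1 to 4) from floxed mice that lacked the Cre. All mice were on a C57BL/6J background and had received poly(I:C), an RNA duplex that sets off interferon production, 3 times, and their cells were isolated 2 weeks later by density centrifugation and a sort on retinoid autofluorescence. Mx1Cre is driven by an interferon-responsive promoter that is active in many cell types, and the Cre was present in the knockout group alone, so loss of Lhx2 in stellate cells, its loss in other cells and the presence of Cre cannot be told apart. The labels give neither ages nor the number of animals behind an array, so p-values here reflect only how far these arrays spread, part of which may be technical.

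Nuclear receptors are transcription factors with a zinc-finger DNA-binding domain and a domain that, in many of them, binds a small lipophilic ligand such as a retinoid, fatty acid, oxysterol, steroid, thyroid hormone or vitamin D. Many of them bind DNA as pairs with a retinoid X receptor at repeats of a short half-site, and recruit corepressors or coactivators according to the ligand. Stellate cells hold most of the retinoid of the liver, and the retinoic acid receptors, the PPARs and the vitamin D receptor have been studied in them as brakes on the change towards matrix-producing myofibroblasts, which the series title names as stellate cell activation.

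Lhx2, the LIM homeobox gene that was deleted, had log2 levels of 11.09, 11.24, 11.35 and 11.49 in knockout arrays 5 to 8, against 11.88 to 12.07 in the control arrays. This is a difference of -0.66 (SE 0.09; limma adjusted p = 0.00136; exact two-sided permutation p = 0.0286, the smallest that 4 arrays against 4 allow). The floxed part of the gene is not in the labels, so part or all of its probe set may target sequence that was kept. Array medians lay between 7.42 and 7.47 on the log2 scale, and the number of arrays limits the precision. The sorted cells carried stellate cell markers at mean log2 levels of 13.17 to 13.20 in the knockout and 13.26 to 13.34 in the control arrays. Of 12 measured, Reln, Hand2 and Hgf were lower in the knockout (25%, beside 3.63% of all genes), 0 were higher and 9 did not pass the threshold. At an unadjusted p under 0.05 were 7 of the 12, 6 lower and 1 higher, beside 17.5% of all genes. Markers of other cells varied between arrays. The mean of 12 hepatocyte markers ran from 9.24 to 10.81 in the knockout and from 8.76 to 10.96 in the control arrays. Of these markers 0 passed the threshold in limma (1 at an unadjusted p under 0.05). The mean of 12 endothelial markers ran from 8.89 to 10.02 in the knockout and from 8.84 to 11.07 in the control arrays. Of these 1, Clec4g, was lower (8.33%, beside 3.63% of all genes). The call of Clec4g ended in 2 of the fits that left out 1 array (limma adjusted p up to 0.0580). Of 11 portal fibroblast markers 4 were higher in the knockout (36.4%, beside 3.76% of all genes) and 0 lower. The largest differences were those of Cd34 (3.08, SE 0.23), Dpt (2.28, SE 0.34) and Eln (0.81, SE 0.10). At an unadjusted p under 0.05 were 6 of the 11, 5 higher and 1 lower, beside 17.5% of all genes. Array means were 8.68 to 8.89 in the knockout and 8.12 to 8.20 in the control arrays. Of the 11 Kupffer and myeloid markers, Cd68 was lower (9.09%, beside 3.63% of all genes). The call of Cd68 ended in 5 of the fits that left out 1 array (limma adjusted p up to 0.0852). Of the 11, 4 had an unadjusted p under 0.05, all of them lower, beside 17.5% of all genes. Array means were 7.17 to 7.56 in the knockout and 7.22 to 8.03 in the control arrays. Of 6 vascular smooth muscle markers Tagln was higher (16.7%, beside 3.76% of all genes), and it was the 1 at an unadjusted p under 0.05. Lymphocyte (6 measured) and cholangiocyte (5 measured) markers had none past the threshold, 0 at an unadjusted p under 0.05, and array means of at most 6.68 in either group. The fits with the hepatocyte or endothelial mean as a covariate cover those cell types alone. Another fit left out control 1 and control 4, the controls at the ends of the hepatocyte range. The hepatocyte and endothelial means overlapped between the groups, so these fits are no check on a difference in cell makeup between the groups. The portal fibroblast and stellate cell means, which did not overlap between the groups, were not used as covariates. The part of the other markers in the results below was not tested.

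Nr2f1, Ppard, Rarg and Rxra fell in the knockout and Esr2 rose. The other 31 measured receptors had adjusted p-values above 0.05 in limma, with the adjustment made over all genes. The 5 called receptors are 13.9% of the 36, where 7.38% of all genes were called. All genes include many dim ones, and the share called among genes as bright as the receptors was not computed. The 4 that fell are 11.1%, against 3.63% of all genes, and the 1 that rose is 2.78%, against 3.76%. The median log2 difference of the 36 was -0.037, beside -0.017 for all genes, and 24 of the 36 differences were below 0, where 57.4% of all genes had a negative difference. In 5 receptors every knockout array lay below every control array (13.9% of receptors and 6.32% of all genes), and in 1 every knockout array lay above (2.78% and 6.38%). Without regard to direction the groups did not overlap in 6 receptors (16.7%), beside 12.7% of all genes. Leaving out 1 array moved the median of the 36 to between -0.052 and -0.015, the last without control 1, and it was -0.022 without knockout 5. The counts rest on few arrays. The number fallen was 2 without knockout 5, without knockout 6, and without control 1 and control 4, and Esr2 lost its call without control 2, without control 3, without knockout 6, and without control 1 and control 4.

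**Figure D1:**
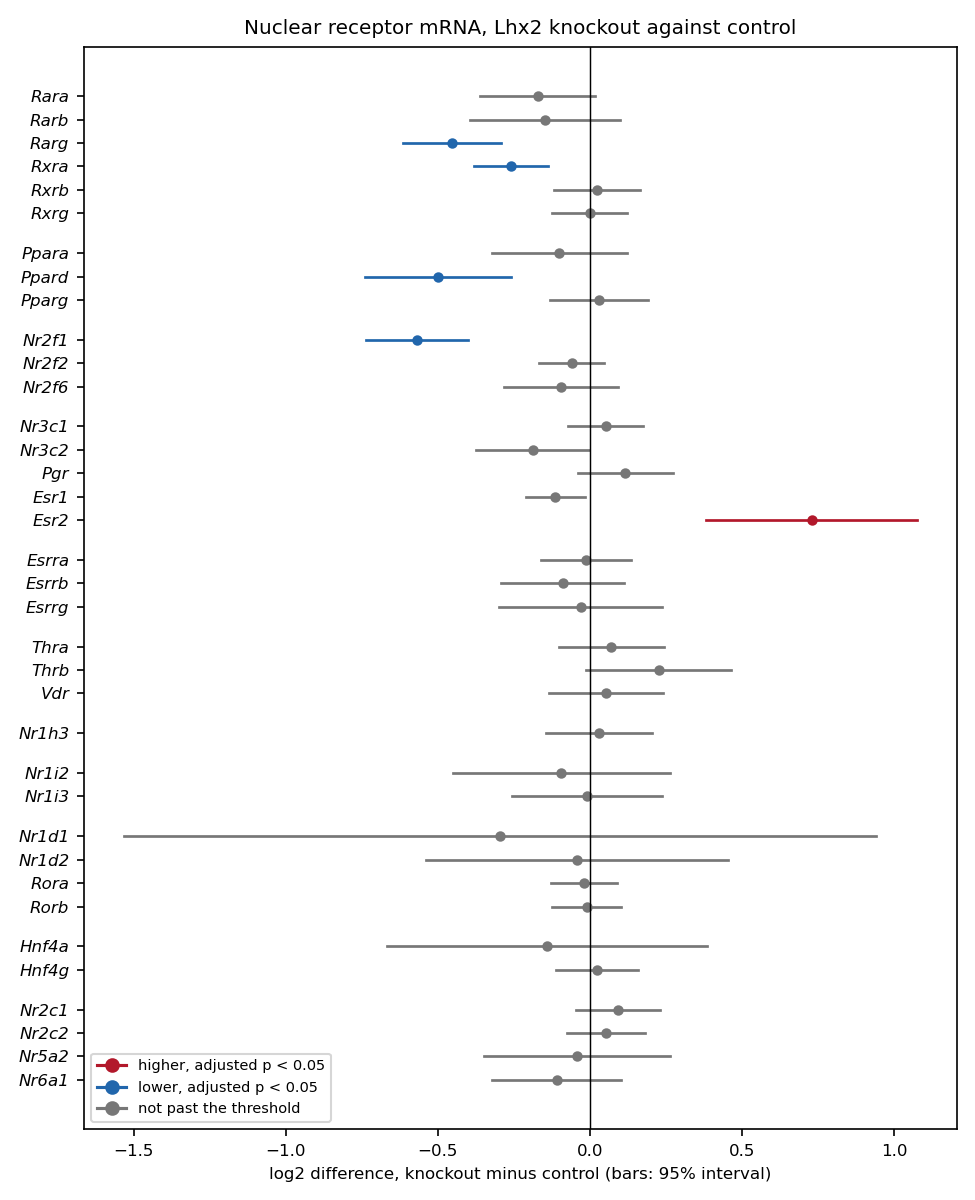
Log2 difference, knockout minus control, of each of the 36 measured nuclear receptors (points) with its 95% interval from limma (bars), grouped by receptor class from the retinoid receptors at the top to the orphan receptors at the bottom. The 4 blue receptors, Rarg, Rxra, Ppard and Nr2f1, fell, the red one, Esr2, rose, and the interval of Nr1d1, from -1.53 to 0.94, is the widest.

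The upstream sequences of the 5 called receptors and of Rarb are shown because these genes carry the results, and because the promoter of Rarb holds a retinoic acid response element that is used as a textbook readout of retinoic acid signalling. Promoter entries of RefSeq (GRCm38.p6) were matched for 35 of the 38 receptors by symbol, with 56 start sites, and the 250 bases upstream of each start were searched on both strands for 4 motifs that do not overlap in the windows shown. These were TAATTA, a core bound by LIM homeodomain factors (4.84% of all 32851 windows), AGGTCA, the nuclear receptor half-site (14.0%), CACGTG, the E-box (6.02%), and a retinoic acid response element made of GTTCA, any 6 bases and GTTCA again (0.067%). Each line gives 120 bases 5′ to 3′ on the strand of the gene, with motif matches in capitals. The lines end at the base before the start, except that of Rarg, which begins 250 bases upstream.
Nr2f1, chr13:78198874-78198993, minus strand, first start: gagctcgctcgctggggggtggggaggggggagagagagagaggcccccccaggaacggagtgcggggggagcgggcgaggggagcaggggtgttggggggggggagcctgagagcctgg
Rarg, chr15:102257653-102257772, minus strand, first start: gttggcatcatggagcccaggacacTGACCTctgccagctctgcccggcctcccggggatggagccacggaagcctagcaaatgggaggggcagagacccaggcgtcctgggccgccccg
Ppard, chr17:28232634-28232753, plus strand: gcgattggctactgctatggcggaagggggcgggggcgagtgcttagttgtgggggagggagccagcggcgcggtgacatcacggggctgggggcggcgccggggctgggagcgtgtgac
Rxra, chr2:27709172-27709291, plus strand, second start: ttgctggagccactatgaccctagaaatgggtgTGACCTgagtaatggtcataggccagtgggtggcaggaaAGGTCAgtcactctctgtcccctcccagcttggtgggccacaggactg
Esr2, chr12:76177260-76177379, minus strand: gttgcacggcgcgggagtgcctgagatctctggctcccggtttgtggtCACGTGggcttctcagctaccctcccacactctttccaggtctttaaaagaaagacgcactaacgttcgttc
Rarb, chr14:16575477-16575596, minus strand: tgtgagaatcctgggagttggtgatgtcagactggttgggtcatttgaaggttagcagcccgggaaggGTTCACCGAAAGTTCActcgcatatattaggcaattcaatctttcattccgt
The capitals mark 1 half-site in Rarg, at -225 from the start, 2 half-sites in the second start of Rxra, at -87 and -48, 1 E-box in Esr2, at -72, and the direct repeat in Rarb, at -52. None of the motifs was found in the windows of Nr2f1 and Ppard, or at the second start of Rarg and the first of Rxra. TAATTA was found in 1 of the 56 receptor windows, that of Hnf4a, and not in those of the 5 called receptors. The half-site was in 9 of the 56 and the E-box in 4. A match describes the letters of a window and shows no binding, and no match says only that these letters are not in it.

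Of the 6 retinoid receptors, Rarg and Rxra fell and Rara, Rarb, Rxrb and Rxrg did not pass the threshold, with a class median of -0.16. Rarg, the gamma receptor for retinoic acid, had log2 levels of 10.16, 10.36, 10.49 and 10.38 in knockout arrays 5 to 8, against 10.86, 10.79, 10.80 and 10.75 in control arrays 1 to 4. The groups did not overlap, and knockout 5 was the lowest. The means were 10.35 ± 0.14 in the knockout and 10.80 ± 0.05 in the control group (SD, n = 4 each), a difference of -0.45 (SE 0.07; limma adjusted p = 0.00408), which left 73.1% of the control level. Rarg kept its call without any 1 array and with either covariate, and without control 1 and control 4 its adjusted p was 0.0489.

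Rxra, the retinoid X receptor that pairs with many other nuclear receptors in liver, was lower by a small and even amount. Its log2 levels were 11.77, 11.77, 11.74 and 11.83 in knockout arrays 5 to 8, against 12.05, 11.95, 12.13 and 12.01 in control arrays 1 to 4, again with no overlap. The difference was -0.26 (SE 0.05; limma adjusted p = 0.0187), which left 83.6% of the control level. Leaving out knockout 5, 6 or 7 ended the call, with adjusted p-values of 0.0520, 0.0612 and 0.0543. So did leaving out both control 1 and control 4, where the difference was -0.27 and the adjusted p 0.123. Rxrb, the broadly expressed beta form, had 9.46, 9.41, 9.66 and 9.57 in the knockout, against 9.49, 9.49, 9.55 and 9.50 in the control arrays, with the groups overlapping and an interval of -0.12 to 0.16 around a difference of 0.02. Within each array, Rxra stood 2.25 ± 0.12 log2 units above Rxrb in the knockout and 2.53 ± 0.05 in the control group (SD, n = 4 each). The change of that gap was -0.28 (exact two-sided permutation p = 0.0286, adjusted p = 0.0381 over the 4 pairs of related receptors tested), so the 2 receptors changed unequally. The gap itself also holds the difference between 2 probe sets, and its size is no ratio of the 2 mRNAs.

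Rarb, the beta receptor whose promoter element is printed above, had log2 levels of 11.29, 11.55, 11.62 and 11.54 in knockout arrays 5 to 8, against 11.64, 11.82, 11.77 and 11.36 in control arrays 1 to 4. The groups overlapped, since control 4 lay below 3 of the 4 knockout arrays. Its difference was -0.15 with a 95% interval of -0.39 to 0.10 (limma adjusted p = 0.616). Rara, the alpha receptor, had 9.99 to 10.31 in the knockout against 10.20 to 10.40 in the control arrays, a difference of -0.17 (interval -0.36 to 0.02; adjusted p = 0.356). The level of Rxrg, the form of muscle and nervous tissue, was 6.53 to 6.57 in the knockout and 6.46 to 6.63 in the control arrays. As a rough guide to the level of unexpressed genes, the mean levels of 1194 olfactory and vomeronasal receptor genes were taken, whose 95th percentile was 6.77. Rxrg is 1 of 8 receptors with both group means below that guide.

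**Figure D2:**
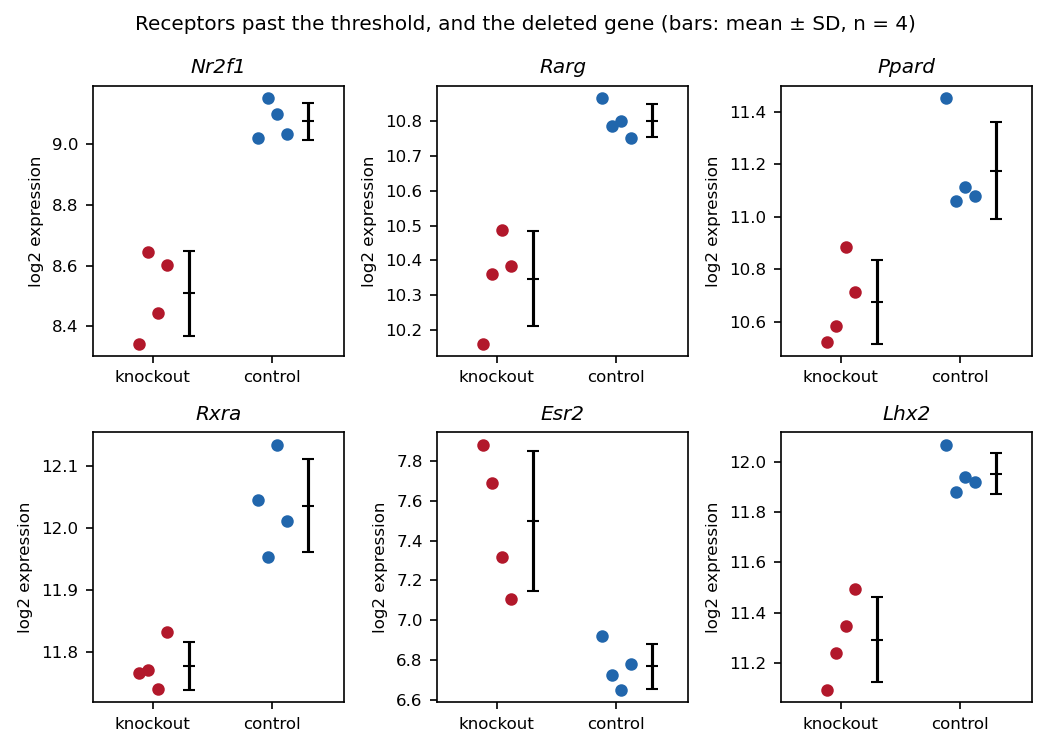
Log2 expression in each array (points) of the 5 receptors past the threshold and of Lhx2, knockout arrays in red and control arrays in blue, with the mean and SD of each group of 4 beside them; each panel has its own range. In Nr2f1, Rarg, Ppard, Rxra and Lhx2 every knockout array lies below every control array, and in Esr2 every knockout array lies above.

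Genes known to respond to retinoic acid held 1 call. Of 10 measured (of 12 listed), 1 was higher (10%, beside 3.76% of all genes) and 0 lower (beside 3.63%), with a median of 0.02. The one was Tgm2, transglutaminase 2, with a mean of 12.96 ± 0.08 in the knockout and 12.55 ± 0.14 in the control group (SD, n = 4 each), a difference of 0.41 (SE 0.08; limma adjusted p = 0.0101). Its adjusted p was 0.123 without control 1 and control 4. Of the 10, 2 had an unadjusted p under 0.05, beside 17.5% of all genes, 2 of them higher and 0 lower. Array means of the list were 9.30 to 9.37 in the knockout and 9.17 to 9.28 in the control arrays. Cyp26b1, the enzyme that degrades retinoic acid in stellate cells, differed by 0.09 (SE 0.10), and Dhrs3, a retinaldehyde reductase, by 0.24 (SE 0.14). Meis1, a homeobox gene, differed by 0.40 (SE 0.11; limma adjusted p = 0.0542), with every knockout array above every control array. These 3 genes were named after their values were seen, and none passed.

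Among the PPARs, receptors for fatty acids and their derivatives, Ppard fell and its relatives did not pass. Ppard, the delta form found in most tissues, had log2 levels of 10.52, 10.58, 10.88 and 10.72 in knockout arrays 5 to 8, against 11.45, 11.06, 11.11 and 11.08 in control arrays 1 to 4. The groups did not overlap, and control 1 stood above the other 3 controls. The difference was -0.50 (SE 0.11; limma adjusted p = 0.0206), which left 70.7% of the control level, and without control 1 it was -0.41 (adjusted p = 0.0273). It lost its call without knockout 5 (adjusted p = 0.0617), without knockout 6 (0.0694), and without control 1 and control 4 (0.0986). With the hepatocyte mean as a covariate the difference was -0.49 (adjusted p = 0.00588), and with the endothelial mean -0.55 (adjusted p = 0.017).

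Pparg, the gamma form of fat cells that has been studied as a marker of quiescent stellate cells, had log2 levels of 6.97, 7.15, 7.03 and 7.08 in the knockout, against 7.11, 7.11, 6.85 and 7.04 in the control arrays. These levels lie near the guide to unexpressed levels, and the groups overlapped. The difference was 0.03, with an interval of -0.13 to 0.19. Pparg minus Ppard, taken within each array, was higher by 0.53 in the knockout (interval 0.22 to 0.84; exact two-sided permutation p = 0.0286, adjusted p = 0.0381). With Pparg so close to the guide, where a fall could hardly show, this gap mostly restates the fall of Ppard and says little about Pparg. Ppara, the alpha form that drives fatty acid oxidation in hepatocytes, differed by -0.10 (interval -0.32 to 0.12). Of 17 measured PPAR target genes (of 20 listed), Plin2, a coat protein of lipid droplets, fell by 0.42 (SE 0.05; limma adjusted p = 0.000887), 0 rose, and 16 did not pass, with a list median of -0.02. The share called lower was 5.88%, near the 3.63% of all genes. Of the 17, 3 had an unadjusted p under 0.05, beside 17.5% of all genes, 3 of them lower and 0 higher. Array means of the list were 8.80 to 8.87 in the knockout and 8.89 to 9.03 in the control arrays. Pdk4 (-0.54, SE 0.19) and Cyp4a14 (-0.62, SE 0.18), named after their values were seen, did not pass.

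The COUP-TFs are orphan receptors of mesenchyme, endothelium and the nervous system that compete with other nuclear receptors for half-sites, and of 3 the alpha form fell. Nr2f1, which encodes COUP-TFI, had log2 levels of 8.34, 8.65, 8.44 and 8.60 in knockout arrays 5 to 8, against 9.02, 9.15, 9.10 and 9.03 in control arrays 1 to 4. No array of one group reached the other. The means were 8.51 ± 0.14 in the knockout and 9.08 ± 0.06 in the control group (SD, n = 4 each), a difference of -0.57 (SE 0.07; limma adjusted p = 0.00137) that left 67.5% of the control level. This was the lowest adjusted p among the receptors. Nr2f1 kept its call in all 21 alternative settings except the requirement of a 1.5-fold change, with an adjusted p of up to 0.0148 and differences between -0.62 and -0.51.

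Nr2f2, which encodes COUP-TFII, had 12.29, 12.33, 12.38 and 12.25 in the knockout, against 12.39, 12.35, 12.39 and 12.36 in the control arrays. The groups overlapped through knockout 7, and the difference of -0.06 had an interval of -0.17 to 0.05. Nr2f1 minus Nr2f2 within each array was lower by 0.51 in the knockout (interval -0.72 to -0.29; exact two-sided permutation p = 0.0286, adjusted p = 0.0381). In 3 pairs 1 receptor fell and its relative did not pass. Their adjusted permutation p-values were 0.0571 to 0.0762 without control 1 or without control 3. With fewer arrays the exact p takes fewer values, and the adjusted p of a pair also depends on the other pairs. Without control 1 and control 4 each of the 3 had an adjusted p of 0.0889. There the exact test cannot reach 0.05 whatever the values, so the 0.0889 cannot show a weaker change. Nr2f6, the third member, differed by -0.10 (interval -0.28 to 0.09), and its levels were 9.26 to 9.55 in the knockout and 9.32 to 9.56 in the control arrays.

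**Figure D3:**
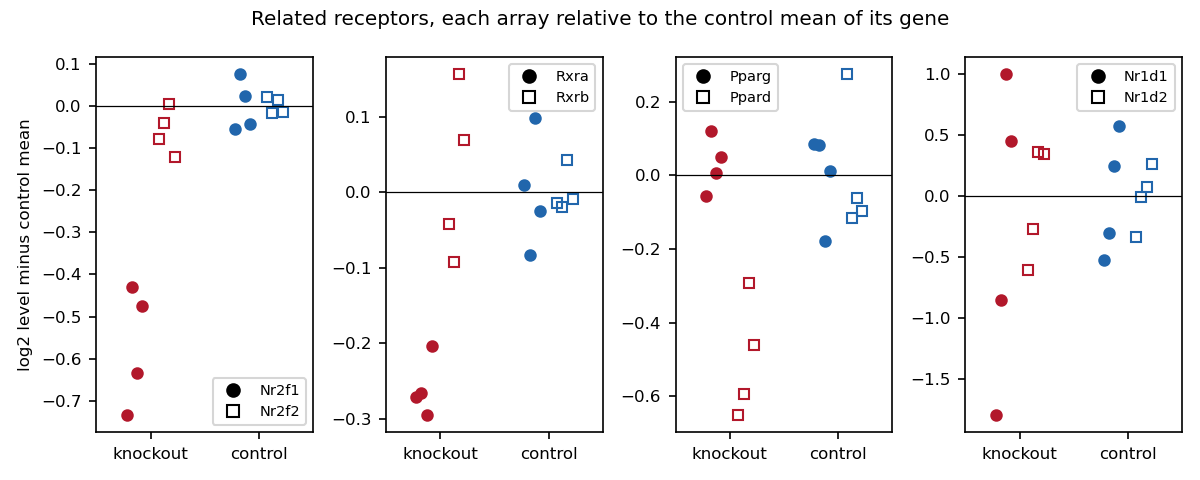
Log2 level of each array minus the control mean of its own gene, for 4 pairs of related receptors, with the first receptor as filled circles and the second as open squares, knockout arrays in red and control arrays in blue; each panel has its own range. Nr2f1, Rxra and Ppard lie below 0 in every knockout array while Nr2f2, Rxrb and Pparg lie nearer to 0, and Nr1d1 and Nr1d2 spread to both sides.

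Of 5 steroid receptors, Esr2 rose and 4 did not pass. Esr2, the beta form of the estrogen receptor, had log2 levels of 7.88, 7.69, 7.32 and 7.11 in knockout arrays 5 to 8, against 6.92, 6.73, 6.65 and 6.78 in control arrays 1 to 4. Each knockout array was above each control array, and the knockout arrays were the more spread. The means were 7.50 ± 0.35 in the knockout and 6.77 ± 0.11 in the control group (SD, n = 4 each), a difference of 0.73 (SE 0.15; limma adjusted p = 0.0195) or 1.66-fold. The control mean lies at the guide to unexpressed levels, so the size of the rise is uncertain. The call was lost without control 2 (adjusted p = 0.0587), control 3 (0.0508) or knockout 6 (0.0651), and without control 1 and control 4 (0.0883).

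Esr1, the alpha form and the main estrogen receptor of liver, had log2 levels of 11.00, 11.01, 10.98 and 10.97 in the knockout, against 11.11, 11.12, 11.10 and 11.08 in the control arrays. It was the 1 receptor whose groups did not overlap without a call: its difference was -0.11 (interval -0.21 to -0.02; unadjusted p = 0.0255, adjusted p = 0.189). Its spread within groups, an SD of 0.017, was among the lowest of all genes, at the 0.11th percentile. Nr3c2, the mineralocorticoid receptor, differed by -0.19 (interval -0.37 to -0.0029; adjusted p = 0.277). Nr3c1, the glucocorticoid receptor, had 11.28, 11.45, 11.27 and 11.33 in the knockout, against 11.25, 11.31, 11.25 and 11.31 in the control arrays, a difference of 0.05 (interval -0.07 to 0.18). Pgr, the progesterone receptor, lay below the guide to unexpressed levels in both groups (means 6.53 in the knockout and 6.41 in the control group). Unadjusted p-values under 0.05 were found for 7 of the 36 receptors (19.4%), beside 17.5% of all genes. Of these, 6 were lower (16.7%), beside 8.57% of all genes.

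Some glucocorticoid target genes varied widely between arrays of the same group. Of 11 measured, with Per1 also among the clock genes, Tsc22d3, a glucocorticoid-induced leucine zipper protein, rose by 0.83 (SE 0.18; limma adjusted p = 0.0225) and Cebpd, a transcription factor, fell by 0.53 (SE 0.12; adjusted p = 0.0319), and 9 did not pass, with a median of -0.25. Each direction held 9.09% of the list, beside 3.76% of all genes higher and 3.63% lower. An unadjusted limma p under 0.05 was found for 5 of the 11, beside 17.5% of all genes, 4 of them lower and 1 higher. The call of Tsc22d3 ended when control 1, control 2, control 3 or knockout 6 was left out (adjusted p up to 0.0691). That of Cebpd ended when any of control 2, control 3, control 4, knockout 6 and knockout 8 was left out (adjusted p up to 0.0951). Zbtb16, a zinc-finger gene strongly induced by glucocorticoids and named after its values were seen, had 12.05, 10.23, 9.37 and 9.48 in knockout arrays 5 to 8, against 9.05, 10.83, 11.23 and 12.12 in control arrays 1 to 4. Its SD within groups was at the 99.96th percentile of all genes, and it did not pass (adjusted p = 0.835). Fkbp5, another such target that was also named after its values were seen, had 10.08, 9.35, 9.21 and 8.92 in the knockout, against 8.89, 9.53, 9.90 and 10.24 in the control arrays (adjusted p = 0.808). Knockout 5 and control 4 were the highest arrays of their groups for both genes.

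The estrogen-related receptors, orphan relatives of the estrogen receptors that act on energy metabolism, did not pass. Esrra differed by -0.01 (interval -0.16 to 0.14), and Esrrb and Esrrg lay below the guide to unexpressed levels in both groups. Thra, the alpha thyroid hormone receptor, differed by 0.07 (interval -0.10 to 0.24). Thrb, the beta form that prevails in hepatocytes, had 7.48, 7.74, 7.95 and 7.86 in the knockout, against 7.39, 7.49, 7.54 and 7.71 in the control arrays, a difference of 0.23 (interval -0.01 to 0.47; limma adjusted p = 0.327) with the groups overlapping. Vdr, the vitamin D receptor, had means of 6.60 in the knockout and 6.54 in the control group, below the guide, so a change in it may have been beyond what these arrays could show.

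The sensors of sterols and foreign compounds showed no call. Nr1h3, the oxysterol receptor LXR-alpha, had log2 levels of 8.50, 8.52, 8.71 and 8.47 in the knockout, against 8.66, 8.37, 8.55 and 8.49 in the control arrays, a difference of 0.03 (interval -0.14 to 0.20). Nr1i2, the pregnane X receptor, and Nr1i3, the constitutive androstane receptor, both of hepatocytes, differed by -0.09 (interval -0.45 to 0.26) and -0.01 (interval -0.25 to 0.24). Nr1i2 was highest in knockout 7 (7.30), control 3 (7.32) and control 1 (7.15), the same 3 arrays that had the highest hepatocyte marker means.

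LXR target genes held more rises than falls. Of 13 measured, 4 were called higher, 0 lower and 9 neither (30.8% higher, beside 3.76% of all genes), with a list median of 0.10. Srebf1, the sterol regulatory element-binding protein that drives fatty acid synthesis, had log2 levels of 10.71, 10.79, 10.92 and 11.08 in knockout arrays 5 to 8, against 9.90, 9.77, 9.95 and 9.97 in control arrays 1 to 4. The groups were far apart relative to their spread, and the difference was 0.98 (SE 0.09; limma adjusted p = 0.000101). Scd2, a stearoyl-CoA desaturase, rose by 0.85 (SE 0.08; adjusted p = 0.00013), Fasn, fatty acid synthase, by 0.46 (SE 0.10; adjusted p = 0.0225), and Lpcat3, a phospholipid-remodelling enzyme, by 0.40 (SE 0.07; adjusted p = 0.0106). Scd2 and Fasn are also targets of SREBP proteins. The cholesterol exporters Abca1 (0.23, SE 0.14) and Abcg1 (-0.31, SE 0.11), which are textbook LXR targets and were named after their values were seen, did not pass. In Abcg1 every knockout array lay below every control array (limma unadjusted p = 0.0201, adjusted p = 0.161). Of the 13, 5 had an unadjusted p under 0.05, beside 17.5% of all genes, 4 of them higher and 1 lower. Fasn lost its call without control 2, control 4 or knockout 7 (adjusted p up to 0.0664), and Fasn and Lpcat3 had adjusted p-values of 0.123 and 0.105 without control 1 and control 4.

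**Figure D4:**
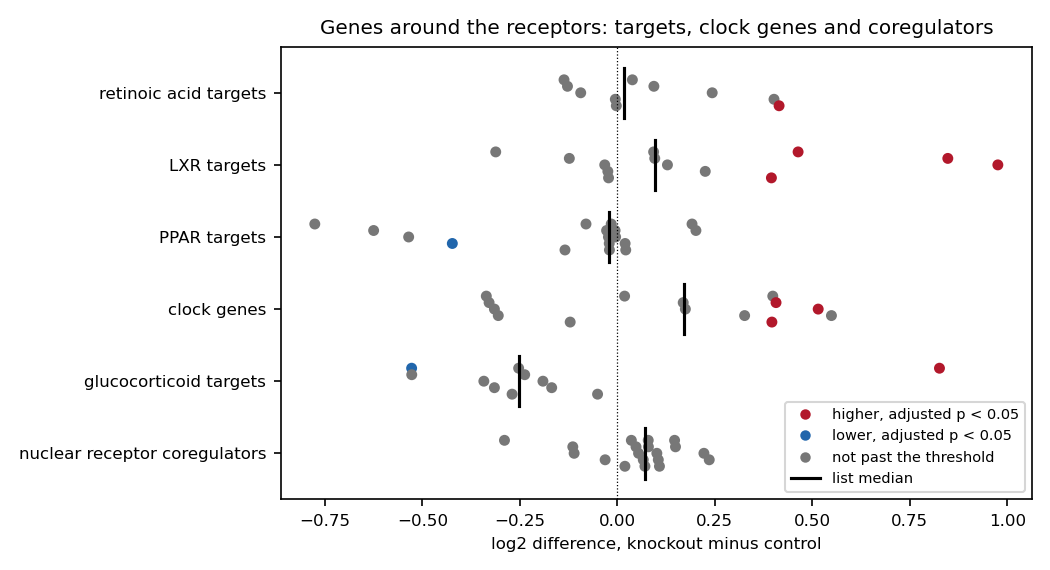
Log2 difference, knockout minus control, of each measured gene (points) of 6 lists of target, clock and coregulator genes, red where higher, blue where lower and grey where not past an adjusted p of 0.05, with the list median as a black bar; the vertical place of points within a list has no meaning. The LXR targets hold 4 red points and the clock genes 3, while the coregulators hold neither red nor blue.

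The REV-ERB genes varied widely within groups. They encode haem-binding repressors of the circadian clock, and Rora encodes an activator that competes with them for the same sites. Nr1d1, REV-ERB-alpha, had log2 levels of 8.74, 9.68, 11.54 and 10.99 in knockout arrays 5 to 8, against 10.01, 10.23, 10.78 and 11.11 in control arrays 1 to 4. The highest and the lowest array of all 8 were both knockouts. Nr1d2, REV-ERB-beta, had 8.85, 9.18, 9.82 and 9.80 in the knockout, against 9.12, 9.45, 9.53 and 9.72 in the control arrays. In both genes knockout 5 was the lowest and knockout 7 the highest array.

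The SD within groups was 0.96 for Nr1d1 and 0.38 for Nr1d2, at the 99.8th and 97.8th percentile of all genes. The differences, -0.30 (interval -1.53 to 0.94) for Nr1d1 and -0.04 (interval -0.54 to 0.45) for Nr1d2, have wide intervals, and changes within them were not detectable here. Without knockout 5 the difference of Nr1d1 turned to 0.20. Nr1d1 minus Nr1d2 within each array differed by -0.25 between the groups (interval -1.29 to 0.79; exact two-sided permutation p = 0.571, adjusted p = 0.571), and by 0.058 without knockout 5. Rora, in contrast, had a range of 10.56 to 10.64 in the knockout and 10.57 to 10.68 in the control arrays, a difference of -0.02 (interval -0.13 to 0.09), and Rorb lay below the guide in both groups.

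**Figure D5:**
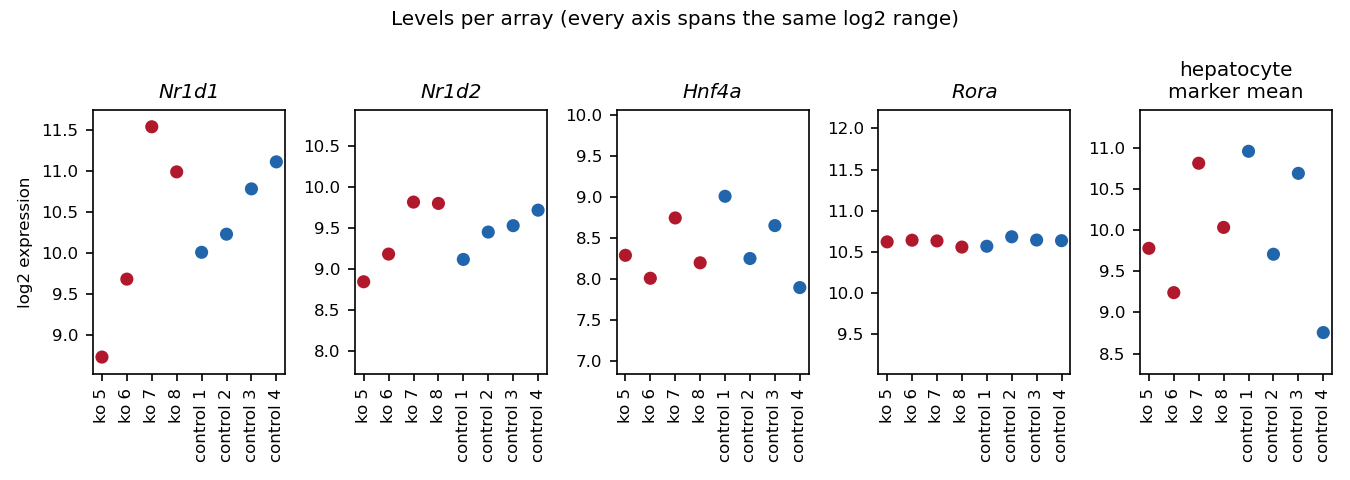
Log2 expression per array of Nr1d1, Nr1d2, Hnf4a and Rora and the mean of 12 hepatocyte markers, knockout arrays 5 to 8 in red on the left and control arrays 1 to 4 in blue on the right; every vertical axis spans the same log2 range. Nr1d1 runs from 8.74 in knockout 5 to 11.54 in knockout 7, Rora is nearly level, and Hnf4a is highest in the arrays with the most hepatocyte marker RNA.

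Of the other clock genes 3 rose. Of 14 measured (of 15 listed), 3 rose and 0 fell (21.4% higher, beside 3.76% of all genes), with a median of 0.17. Unadjusted p-values were under 0.05 for 10 of the 14, beside 17.5% of all genes, and of these 7 were higher and 3 lower in the knockout. The 3 lower ones, none past the threshold and named after their values were seen, were Ciart (-0.31; limma adjusted p = 0.0605) and Clock (-0.12; adjusted p = 0.233), both without overlap of the groups, and Nfil3 (-0.33; adjusted p = 0.213). The 3 called were Tef (0.52, SE 0.07; limma adjusted p = 0.00121) and Dbp (0.40, SE 0.09; adjusted p = 0.0216), related transcription factors of clock output, and the period gene Per3 (0.41, SE 0.06; adjusted p = 0.00211). Tef had 9.10, 9.25, 9.07 and 9.08 in knockout arrays 5 to 8, against 8.48, 8.59, 8.66 and 8.70 in control arrays 1 to 4, with no overlap. Dbp lost its call without control 4, knockout 7 or knockout 8 (adjusted p up to 0.0661). Arntl, the clock activator BMAL1 that REV-ERB proteins repress, and Per2 were named after their values were seen. Arntl had 10.51, 10.68, 10.56 and 10.53 in the knockout, against 10.33, 10.43, 10.36 and 10.46 in the control arrays, a difference of 0.17 (SE 0.06) that did not pass (adjusted p = 0.128), although the groups did not overlap. Per2 had 10.33, 9.14, 8.30 and 8.82 in the knockout, against 8.36, 8.74, 8.51 and 8.78 in the control arrays (adjusted p = 0.543). In Per2 knockout 5 was the highest and knockout 7 the lowest of the 8 arrays, which is the reverse of Nr1d1. The labels do not give the time of day of the isolations, and its part in these values was not tested.

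Hnf4a, a master regulator of hepatocyte identity, followed the hepatocyte markers across arrays. It had log2 levels of 8.29, 8.01, 8.74 and 8.20 in knockout arrays 5 to 8, against 9.01, 8.25, 8.65 and 7.90 in control arrays 1 to 4, where the hepatocyte marker means were 9.78, 9.24, 10.81 and 10.03 in the knockout and 10.96, 9.71, 10.69 and 8.76 in the control arrays. The highest Hnf4a level and the highest marker mean were both in control 1, and the lowest of each in control 4. Hnf4a did not pass (difference -0.14, interval -0.67 to 0.39). In such bulk RNA, fewer cells of a type and less RNA per cell cannot be told apart. Hnf4g lay below the guide in both groups.

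The remaining orphan receptors did not pass. Nr5a2, the liver receptor homolog of bile acid and cholesterol metabolism, had 6.56 to 7.19 in the knockout and 6.79 to 7.18 in the control arrays, close to the guide. Nr2c1 and Nr2c2, the testicular receptors, differed by 0.09 (interval -0.05 to 0.23) and 0.05 (interval -0.08 to 0.18), and Nr6a1, the germ cell nuclear factor, by -0.11 (interval -0.32 to 0.10). The coregulators through which nuclear receptors act, corepressors and coactivators that read out or modify chromatin, held 0 genes called by limma among the 19 measured of 21 listed, with a median of 0.07. Of all genes 7.38% were called. Of the 19, 5 had an unadjusted p under 0.05, beside 17.5% of all genes, 4 of them higher and 1 lower.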

How the data were processed

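Gene expression was measured in 8 RNA samples of sorted mouse stellate cells, 1 array each, from 150 ng RNA per sample. The deposited log2 values were normalized by the authors with the Robust Multichip Algorithm (RMA), per the submitters' processing notes. The sources used here give no version of it, no scan date and no batch. RMA compresses differences of dim and very bright probe sets. Of 35556 probe sets, 21789 had a single gene symbol in the platform annotation, and the one with the highest mean stood for each of 19938 genes. Groups came from the sample titles. The fit of knockout minus control used limma 3.58.1 (lmFit, eBayes) under R 4.3.3 without a filter on dim genes. P-values were two-sided and adjusted by Benjamini and Hochberg's method over the whole table, calls were made at 0.05, and intervals are at 95%. Pairs of related receptors were compared by exact permutation over 70 assignments of arrays. No set test was run. The named genes are all measured receptors, Lhx2, the called genes of each list (up to 5 a direction) and up to 3 called genes of each marker list, and others are marked in the text. The receptors and lists were chosen with earlier results of these data known. The 21 alternatives covered normalization, dim genes, variance model, array weights, probe sets, thresholds, marker covariates and left-out arrays.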

Additional observations from a re-analysis of the deposited data

Results flagged for a closer look

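Among 132 groups of 4 arrays tested for a single array far from the other 3, 8 were found, 5 of them among the 72 groups of receptors, and chance gives about 5%. Ppard was 11.45 in control 1 on the log2 scale, against 11.06 to 11.11 in the other controls. Nr5a2 was 7.18 in control 4, against 6.79 to 6.83 in the others. Nr2f6 was 9.55 in knockout 7, against 9.26 to 9.31, and Nr2c1 was 9.94 in knockout 5, against 10.09 to 10.11. Rxrb was 9.55 in control 3, against 9.49 to 9.50. Outside the receptors, Tef was 9.25 in knockout 6 (others 9.07 to 9.10), Cd68 was 10.07 in control 4 (others 10.49 to 10.56) and Mfap4, named only because of its outlying array, was 8.06 in knockout 7 (others 7.91 to 7.94).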

How the results depend on the processing

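The 31 receptors without a call gained none in the alternatives, of which there were 21, or 20 for the 8 dim receptors. Each of the 5 called receptors lost its call at least once, and none of them changed sign. Rxra lost its call in 6 alternatives, and Ppard and Esr2 in 5 each. Nr2f1 and Rarg lost their call in 1 alternative each, the 1.5-fold threshold. Leaving out 1 array gave 0 to 1 receptors higher, 2 to 4 lower, and 1010 to 1409 genes called (502 to 790 higher, 487 to 677 lower), with a median receptor difference of -0.052 to -0.015. For the related pairs it gave differences of -0.56 to -0.46 (Nr2f1 minus Nr2f2), -0.32 to -0.22 (Rxra minus Rxrb), 0.47 to 0.61 (Pparg minus Ppard) and -0.55 to 0.058 (Nr1d1 minus Nr1d2). Without control 1 and control 4 there were 0 receptors higher and 2 lower among 776 genes called (371 higher, 405 lower). The first 3 pairs then had -0.56, -0.28 and 0.49, each at an adjusted p of 0.0889. With so few arrays the exact permutation test of the pairs cannot reach 0.05. An adjusted p under 0.01 left 0 receptors higher and 2 lower among 775 genes (386 higher, 389 lower), and a 1.5-fold change 1 higher and 0 lower among 523 (284 higher, 239 lower). With genes above the guide percentile alone, the median receptor difference was -0.077, with the dim receptors left out. No paired analysis was possible because the groups share no replicate numbers. Dim receptors limit what can be seen: 8 had both means below the guide.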
